A study of Mus musculus with 15 samples.

Results

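The expression of 37 lysosome and autophagy genes was examined in hematopoietic stem cells (HSCs) of mice with altered Gfi1. The genes were chosen by symbol, as lysosomal enzymes, lysosomal membrane proteins, the transcription factors Tfeb, Tfe3 and Mitf, and parts of the autophagy machinery. All 37 were found among the 35533 gene symbols of the table, and all 37 were among the 13358 genes that passed the filter on low counts.

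The data are bulk RNA-seq of HSCs, sorted by the surface markers Lin- Sca1+ c-Kit+ CD150+ CD48-, with 3 libraries for each of 5 genotypes. GFI1-KD mice carry human GFI1 in the murine locus with a Neo cassette that lowers its expression, and Gfi1-KO mice lack Gfi1. GFI1-36N mice carry a variant of human GFI1, GFI1-KI mice carry human GFI1 at the murine locus (the titles of their libraries read GFI1-36S), and Gfi1-WT mice carry the murine gene. All alleles are carried by the whole animal, the mice were untreated, and the labels give neither age nor sex and do not say how many mice went into a library. GFI1-KI was the control of GFI1-KD and GFI1-36N, Gfi1-WT was the control of Gfi1-KO, and GFI1-KI was also set against Gfi1-WT.

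Lysosomes are acidic organelles in which proteases, glycosidases and lipid-handling proteins break down material that arrives by endocytosis or by autophagy. In autophagy, a membrane that carries lipid-bound Atg8 family proteins encloses cytoplasm or whole organelles and then fuses with the lysosome. TFEB, TFE3 and MITF are related transcription factors that mTORC1, a kinase complex on the lysosomal surface, keeps in the cytoplasm when nutrients are plentiful, and that switch on lysosomal and autophagy genes from the nucleus. HSCs are known to depend on autophagy, which clears mitochondria in them and is needed for their quiescence.

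The E-box CACGTG is the core of the element through which TFEB and its relatives act on lysosomal genes. Stretches upstream of the start are shown for a glycosidase, a membrane protein and an autophagy enzyme among the members, 5′ to 3′ on the strand of the gene, with each copy of CACGTG in capitals. They were taken from RefSeq on GRCm38.p6 and end where the gene begins in RefSeq or in GENCODE, whichever is further upstream. The stretches are chrX:134601126-134601255 (minus strand) for Gla, chr8:13158911-13159160 (plus strand) for Lamp1 and chr16:45158579-45158784 (plus strand) for Atg3.
Gla: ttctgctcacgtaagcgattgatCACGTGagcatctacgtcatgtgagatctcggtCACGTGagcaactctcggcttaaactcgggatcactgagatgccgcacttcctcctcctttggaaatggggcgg
Lamp1: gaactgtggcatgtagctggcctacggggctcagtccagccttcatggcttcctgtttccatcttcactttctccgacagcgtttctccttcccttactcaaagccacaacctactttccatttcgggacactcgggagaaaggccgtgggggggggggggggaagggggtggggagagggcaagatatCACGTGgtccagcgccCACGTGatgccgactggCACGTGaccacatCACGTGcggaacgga
Atg3: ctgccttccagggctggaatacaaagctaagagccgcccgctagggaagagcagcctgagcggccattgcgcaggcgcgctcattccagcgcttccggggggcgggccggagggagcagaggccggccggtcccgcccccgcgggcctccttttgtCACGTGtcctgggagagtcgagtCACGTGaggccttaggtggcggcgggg

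Gla, which encodes alpha-galactosidase, has 2 copies in this stretch, at -227 and -194 from the RefSeq start. Lamp1, which encodes an abundant glycoprotein of the lysosomal membrane, has 4 copies between -61 and -15. Atg3, which encodes the enzyme that transfers Atg8 proteins to lipid, has 2 copies at -94 and -71.

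A window of 300 bases, 250 before to 50 after the start, was found in the RefSeq table for 30 of the 37 members. Npc1, Ctsb, Ctsh, Becn1, Atg12, Atg16l1 and Map1lc3a had none. The letters CACGTG, which read the same on both strands, were present in a window of 10 of these 30 genes (33.3%), against 8.09% of all 27025 genes with a window of the same length. These 10 were Atg3, Atg5, Atg7, Ctsa, Ctsd, Ctsl, Gla, Glb1, Lamp1 and Lgmn. The windows follow RefSeq starts, and those with the letters in Atg7, Ctsa, Ctsl and Lgmn lie wholly inside the gene as GENCODE places it. The longer form TCACGTGA, also the same on both strands and counted within the 10, was present in Atg3, Ctsa, Ctsd and Gla (13.3%), against 1.13% of all genes. These are matches of letters and were not measured as binding.

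The libraries held 16.2M to 20.6M estimated counts, and 9392 to 15116 gene symbols were above 0 in a library. Values below are CPM, the counts of a gene over the total of its library after TMM scaling, brought to 1 common library size, unless another scale is named. Columns and labels share only a running number, on which the match of each library to its genotype rests. Each genotype name below therefore stands for the libraries so labelled. Murine Gfi1 had 6.22, 3.31 and 0 CPM in the libraries labelled Gfi1-KO, against 0.285, 0 and 0 CPM in those labelled Gfi1-WT, and therefore went against these labels. It was at 0 to 22.7 CPM in the libraries of the 3 genotypes with human GFI1, whose sequence the murine reference does not hold. Replicates are separate samples of a label, and since no source says that they come from separate mice, the tests measure the spread between these libraries.

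Some libraries stood apart before any comparison was made. GFI1-36N replicate 3 had the fewest genes above 0 and a median Spearman correlation of 0.71 with the other libraries, against 0.804 to 0.863 for the rest. Gfi1-KO replicate 2 went against the sort. Cd48, which the gate excludes, had 502 CPM in it and at most 46.2 CPM in the other 14 libraries, while Slamf1, which encodes CD150, had 1.29 CPM. The 12 HSC markers summed to 1210 CPM in this library and to 1772 to 3414 CPM in the others, whereas 10 granulocyte markers summed to 3439 CPM (95.7 to 1376 in the others) and 7 mast cell and basophil markers to 1883 CPM (0 to 377 in the others). Most of that granulocyte sum was Mpo (2382 CPM), Elane (366), Ctsg (340) and Prtn3 (285). S100a9, Ltf, Ngp and Camp were at 0 in this library, and S100a8 at 1.96 CPM. The erythroid markers summed to 824 CPM (25.4 to 321 in the others), with Klf1 and Epor at 0, and the megakaryocyte markers to 37.8 CPM (345 to 2642 in the others). Of the 14 monocyte and macrophage markers, Adgre1 and C1qc were at 0 in all 15 libraries, whereas Lyz2 was read in every library. Others were read in some, such as Ly6c2 (94.1 CPM), Ccr2 (82.2 CPM) and Cd14 (33.1 CPM) in Gfi1-KO replicate 2. Vcam1 had 27.6 CPM in GFI1-KD replicate 3, and C1qb had 9.1 CPM in GFI1-36N replicate 1. Many results that rest on Gfi1-KO replicate 2 or GFI1-36N replicate 3 are given with and without them. The rest, among them the sums by genotype, are given only with these libraries. In bulk RNA fewer cells of a type cannot be told apart from less RNA per cell.

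The 37 genes together took 0.403% to 0.655% of a library, which is 4026 to 6552 CPM. The highest sum was that of Gfi1-KO replicate 2, and the lowest that of GFI1-KD replicate 2. By genotype the sums were 4617 ± 513 CPM in GFI1-KD, 5421 ± 1035 CPM in Gfi1-KO, 5131 ± 219 CPM in GFI1-36N, 4618 ± 455 CPM in GFI1-KI and 5027 ± 218 CPM in Gfi1-WT (SD, n = 3 each). The ranges of GFI1-KD and GFI1-KI overlapped, as did those of Gfi1-KO and Gfi1-WT and those of GFI1-36N and GFI1-KI.

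**Figure D1:**
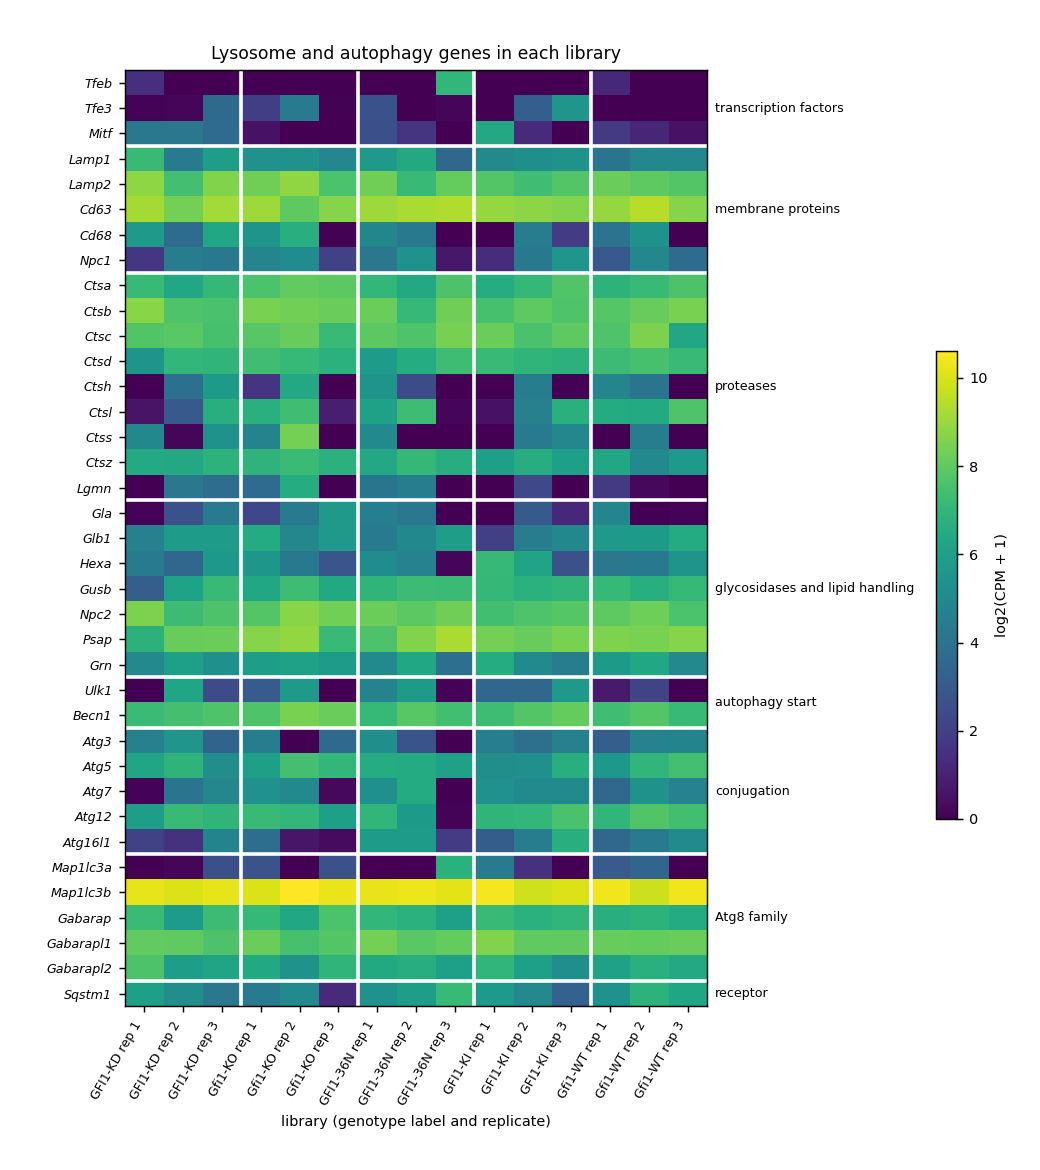
Level of each of the 37 genes (rows, grouped by role) in each of the 15 libraries (columns, by genotype label and replicate), as log2(CPM + 1) from dark (0) to yellow. Map1lc3b is bright in all 15 libraries, whereas Tfeb is at 0 in 12 of them and reads 129.9 CPM in GFI1-36N replicate 3.

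As a group, the members were read more evenly than most genes. The coefficient of variation (SD over mean, across the 15 libraries) had a median of 56.9% over the 37 members and of 86.7% over all 13358 genes tested, and it was under 50% for 17 members (45.95%), against 20.4% of all genes. Members were also more abundant, with a median of 50.3 CPM against 20.9 CPM, and 25 of them (67.6%) were above 0 in every library, against 45.2% of all genes, and the part of this abundance in the smaller variation was not tested. Of the 37 members, 12 were at 0 in at least 1 library, and 6 drew over 40% of their summed CPM from a single library: Tfeb, Map1lc3a, Ctss, Mitf, Lgmn and Tfe3.

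Per transcript length, on the scale of TPM, which divides counts by length and then by their sum in the library, the medians of the members ran between 0 and 1059. Map1lc3b, the Atg8 family protein LC3B that marks autophagosomes, was highest with a median of 1059, ranging from 841 to 1312. Cd63, a tetraspanin of late endosomes and lysosomes, followed with 765, and its range (319 to 1023) overlapped that of Map1lc3b. Gabarapl1 (228), Psap (205), Becn1 (189) and Gabarap (165) came next, and no neighbours among these 4 were separated by more than their spread. Between 83.1 and 155.1 stood Ctsb, Ctsc, Npc2, Lamp2, Ctsa, Gabarapl2, Ctsd, Ctsz and Gusb. The 3 transcription factors were lowest, with medians of 0.474 for Mitf, 0.0357 for Tfe3 and 0 for Tfeb.

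**Figure D2:**
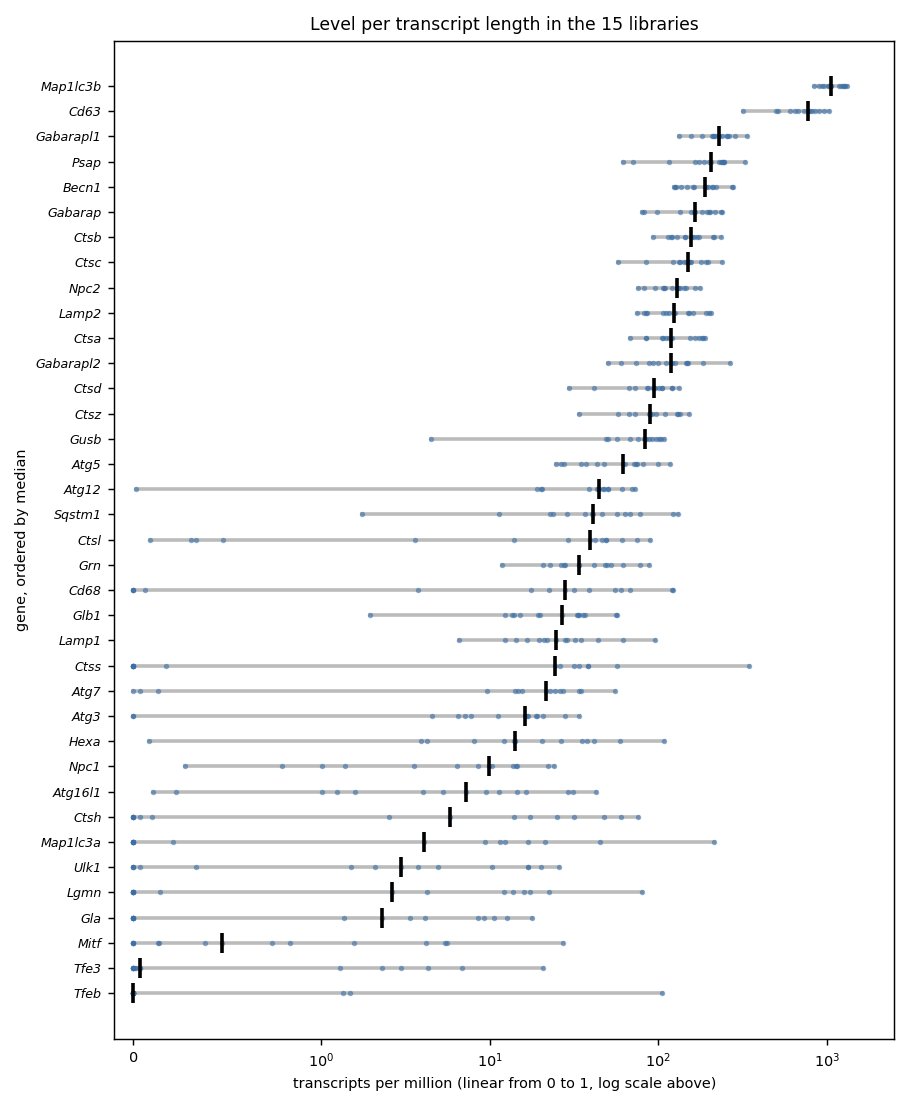
Level of each gene per transcript length (TPM, linear from 0 to 1 and logarithmic above), with 1 point per library, a grey line over the range and a black tick at the median of the 15 libraries. The genes run from Map1lc3b (median 1059) at the top to Tfeb (median 0) at the bottom, and the ranges widen toward the low end.

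Of the transcription factors, Tfeb and Tfe3 were near or at the limit of detection in most libraries. They had under 10 counts in 12 and 9 of the 15 libraries, and Mitf in 6. Tfeb (chr17:47737030-47792419, GRCm38) had 1.72, 0 and 0 CPM in GFI1-KD, 0 CPM in all 3 Gfi1-KO libraries, 0, 0 and 129.9 CPM in GFI1-36N, 0 CPM in all 3 GFI1-KI libraries, and 1.37, 0 and 0 CPM in Gfi1-WT, for replicates 1, 2 and 3. Thus 97.7% of its summed level came from GFI1-36N replicate 3, the library that stood apart. Tfe3 (chrX:7762560-7775202) had 0.062, 0.096 and 11.7 CPM in GFI1-KD, 2.96, 19.96 and 0.056 CPM in Gfi1-KO, 5.44, 0 and 0.125 CPM in GFI1-36N, 0, 8.07 and 45.2 CPM in GFI1-KI, and 0 CPM in all 3 Gfi1-WT libraries. Every genotype but Gfi1-WT had at least 1 library with Tfe3 well above 1 count and at least 1 library at or near 0.

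Mitf (chr6:97807052-98021349), which is best known from pigment cells and mast cells, had 18.2, 17.3 and 12.2 CPM in GFI1-KD, 0.415, 0 and 0 CPM in Gfi1-KO, 4.95, 2.14 and 0 CPM in GFI1-36N, 83.5, 1.39 and 0 CPM in GFI1-KI, and 2.45, 1.22 and 0.42 CPM in Gfi1-WT. The 3 GFI1-KD libraries were close to each other, while the GFI1-KI libraries lay on both sides of them. The mast cell and basophil markers summed to 127, 26.8 and 56.7 CPM in GFI1-KD, against 80.9, 377 and 29.5 CPM in GFI1-KI, and their part in the level of Mitf was not tested. In the transcript table, reads of Mitf were assigned to 1 of its 8 matched transcripts (Mitf-202, 100%), and those of Tfeb mainly to Tfeb-202 (98.4%).

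Among the membrane proteins, Cd63 and Lamp2 were read in every library and varied little, with coefficients of variation of 24.8% and 36.5%. Lamp2, needed for the fusion of autophagosomes with lysosomes, was assigned mainly to the transcript Lamp2-202 (78.9%), then to Lamp2-201 (13.7%) and Lamp2-204 (5.84%), with Lamp2-202 leading in all 15 libraries. Lamp1 (chr8:13159161-13175338) had 146.5, 20.5 and 58.9 CPM in GFI1-KD, 40.5, 42.1 and 28.7 CPM in Gfi1-KO, 50.5, 82.9 and 10.6 CPM in GFI1-36N, 31.2, 38.1 and 42.9 CPM in GFI1-KI, and 16.6, 28.8 and 29.6 CPM in Gfi1-WT. Its highest library was GFI1-KD replicate 1 and its lowest GFI1-36N replicate 3. Npc1, the membrane exporter of lysosomal cholesterol, ranged from 0.625 to 44.7 CPM, while its soluble partner Npc2 kept to 153.6 to 416 CPM.

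Of the 9 proteases, Ctsa, Ctsb, Ctsc, Ctsd and Ctsz were read in every library at 31.8 CPM or more. Ctsd (chr7:142375911-142388038), the main aspartic protease of the lysosome, had 43.4, 127.8 and 122.4 CPM in GFI1-KD, 162.9, 138.3 and 109.7 CPM in Gfi1-KO, 57.97, 94.02 and 156.4 CPM in GFI1-36N, 142.8, 122.6 and 110.6 CPM in GFI1-KI, and 155.4, 185.1 and 141.9 CPM in Gfi1-WT. The low values were those of GFI1-KD replicate 1 and GFI1-36N replicate 1. The cysteine proteases Ctsl, Ctss and Ctsh and the asparaginyl endopeptidase Lgmn (legumain) were uneven, with coefficients of variation of 90.9%, 235%, 140.4% and 198.8%.

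Ctsh, Ctss and Lgmn, together with Cd68, a lysosomal membrane protein that is most abundant in macrophages and monocytes, were at or near 0 together in 4 of the 15 libraries. In Gfi1-KO replicate 3, GFI1-36N replicate 3, GFI1-KI replicate 1 and Gfi1-WT replicate 3, all 4 genes were below 0.1 CPM. In other libraries they parted, as in GFI1-KD replicate 1 (Cd68 51.7 and Ctss 29.6 CPM, Ctsh and Lgmn 0) and Gfi1-WT replicate 1 (Cd68 15.3 and Ctsh 27.5 CPM, Ctss 0). The 4 libraries with all 4 genes below 0.1 CPM come from 4 genotypes. They had 6, 8, 7 and 8 of the 37 members at 0. These 4 genes themselves add to those counts, which therefore follow in part from how the libraries were picked. All 4 genes had their highest value in Gfi1-KO replicate 2: Ctss 330.7 CPM, Cd68 103.4 CPM, Lgmn 94.3 CPM and Ctsh 82.9 CPM. The pattern was described after the values were seen and was not tested.

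Gfi1-KO replicate 2 held the highest value of 12 of the 37 members. Besides those 4 they were Map1lc3b, Becn1, Npc2, Lamp2, Ctsa, Ctsz, Gusb and Atg5. The 9 proteases summed to 1823 CPM in this library and to 768 to 1204 CPM in the other 14. GFI1-KI replicate 2, with the second highest sum of granulocyte markers (1376 CPM), had 857.5 CPM of the 9 proteases, near the lower end. The 14 monocyte and macrophage markers summed to 629 CPM in Gfi1-KO replicate 2 and to 239 to 786 CPM in the others. Those other than Lyz2, left out after the values were seen, summed to 212 CPM in Gfi1-KO replicate 2, with Ly6c2 at 94.1 CPM and Ccr2 at 82.2 CPM, and to 1.68 to 116.3 CPM in the others. The part of these cells' RNA in the protease levels was not tested.

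**Figure D3:**
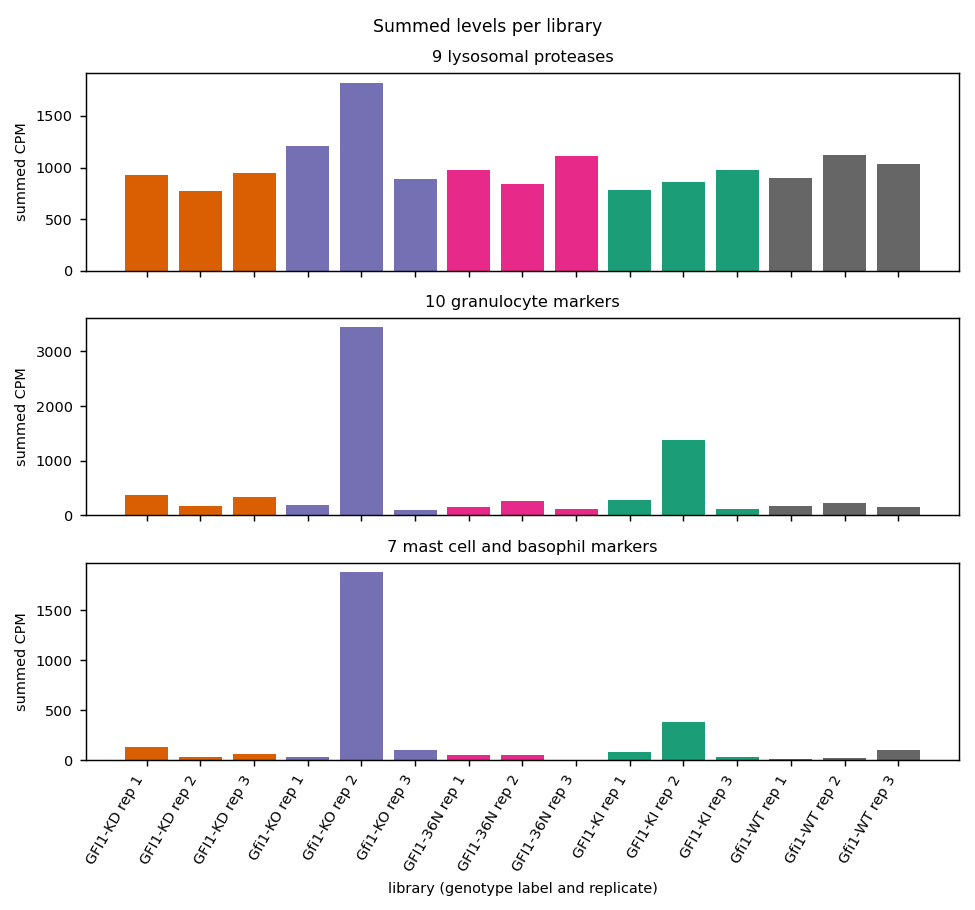
Summed CPM per library of the 9 lysosomal proteases (top), 10 granulocyte markers (middle) and 7 mast cell and basophil markers (bottom), with bars by genotype label and replicate. Gfi1-KO replicate 2 is highest in all 3 panels, at 1823, 3439 and 1883 CPM.

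The glycosidases and lipid-handling proteins were led by Psap, the precursor of the saposins that assist the breakdown of sphingolipids, with a median of 352 CPM and a highest value of 620.7 CPM in GFI1-36N replicate 3. Npc2 (median 244.5 CPM) and Gusb (122.5 CPM), a beta-glucuronidase, were also read in all libraries, although Gusb was at 8.18 CPM in GFI1-KD replicate 1. Grn, which encodes progranulin, had a median of 53.6 CPM. Glb1 (beta-galactosidase, 50.6 CPM), Hexa (beta-hexosaminidase, 19.5 CPM) and Gla (alpha-galactosidase, 5.25 CPM) were lower, and Gla was at 0 in 3 libraries.

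The genes that start autophagy and the conjugation machinery were read at very different levels. Becn1, a subunit of the lipid kinase complex that starts the autophagosome, ranged from 138 to 352.9 CPM, whereas Ulk1, the kinase upstream of it, ranged from 0 to 74.9 CPM and was at 0 in GFI1-KD replicate 1, Gfi1-KO replicate 3 and Gfi1-WT replicate 3. In the conjugation machinery, Atg12 (median 126 CPM) and Atg5 (90.2 CPM), which are joined to each other, were above Atg7 (32.1 CPM), Atg3 (21.2 CPM) and Atg16l1 (13.5 CPM) in CPM, a scale that also grows with transcript length. Per transcript length the same 5 genes had medians of 44.5 (Atg12), 62.0 (Atg5), 21.7 (Atg7), 16.2 (Atg3) and 7.27 (Atg16l1). Atg12 was read at 53.7 CPM or more in 14 libraries and at 0.063 CPM in GFI1-36N replicate 3.

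In the Atg8 family, Map1lc3b (chr8:121590361-121598760) had 1174, 1055 and 1172 CPM in GFI1-KD, 1064, 1558 and 1256 CPM in Gfi1-KO, 1210.0, 1298 and 1150.0 CPM in GFI1-36N, 1397, 924 and 1058 CPM in GFI1-KI, and 1312, 884 and 1322 CPM in Gfi1-WT. Its coefficient of variation of 15.01% was the smallest of the 37, and 0.285% of all genes tested had a lower one. Gabarapl1 was second with 19.3%. The transcript Map1lc3b-201 led in all 15 libraries, with 75.6% of the counts of the gene. Map1lc3a, the paralog LC3A, was at 0 in 6 libraries and read 109.9 CPM in GFI1-36N replicate 3 and at most 20.5 CPM elsewhere. The authors' estimation splits reads between related copies, so the division among Atg8 paralogs is uncertain to that extent.

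Sqstm1 (chr11:50199366-50210827) encodes p62, the receptor that carries ubiquitinated cargo into autophagosomes. It had 64.95, 36.97 and 17.8 CPM in GFI1-KD, 20.1, 31.6 and 1.51 CPM in Gfi1-KO, 41.5, 58.9 and 146.1 CPM in GFI1-36N, 51.8, 30.6 and 9.05 CPM in GFI1-KI, and 42.1, 116.3 and 76.3 CPM in Gfi1-WT. Its highest value, like those of Tfeb, Map1lc3a and Psap, was in GFI1-36N replicate 3.

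Genotypes were compared by edgeR's quasi-likelihood F test over all genes tested, with all libraries in 1 fit. With Benjamini-Hochberg adjustment at 0.05, 0 of 13358 genes (0%) passed in any of the 4 comparisons, and so 0 of the 37 members did. At an unadjusted p under 0.05 there were 333 genes (2.49%) in GFI1-KD minus GFI1-KI, 410 (3.07%) in Gfi1-KO minus Gfi1-WT, 614 (4.6%) in GFI1-36N minus GFI1-KI and 279 (2.09%) in GFI1-KI minus Gfi1-WT. By limma-trend 0 genes passed the adjusted threshold in each comparison, and by DESeq2 185, 197, 362 and 149 genes passed in the same order. Of the 37 members, DESeq2 passed 0 in the first 3 comparisons and Tfe3 in GFI1-KI minus Gfi1-WT. GFI1-KI is shared by 3 of the comparisons and Gfi1-WT by 2, so their values are not independent of each other. The median standard error of a member's log2 fold change was 0.869 to 0.897, and differences smaller than that were not detectable in a typical member. This is not the limit of detection, as differences above their own standard error also failed to pass. Ctsz in Gfi1-KO minus Gfi1-WT, at 1.20 ± 0.47 (SE), was such a case.

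**Figure D4:**
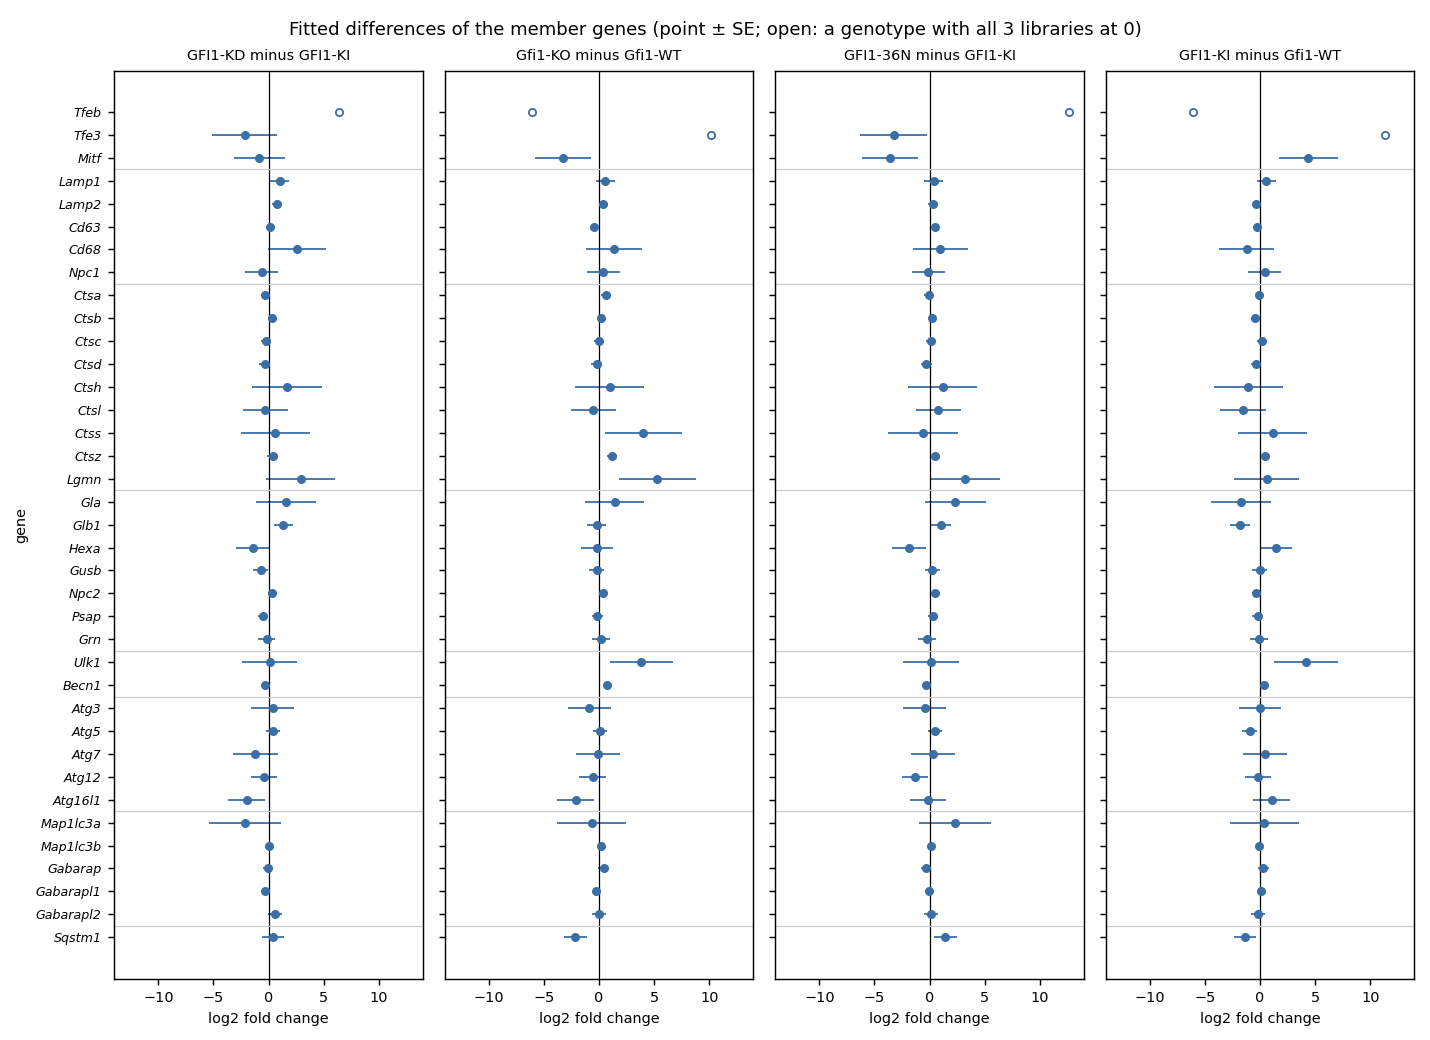
Fitted log2 fold change of each of the 37 genes in the 4 comparisons (points, with bars of 1 SE), in the order of roles used in the text. Open points without bars mark Tfeb and Tfe3 where 1 genotype has all 3 libraries at 0, and Map1lc3b stays between -0.06 and 0.14 in all 4 panels.

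In the libraries labelled GFI1-KD, set against those labelled GFI1-KI, 19 members were higher and 18 lower, and the median of their log2 fold changes was 0.01 (all genes tested: 49.8% higher, median 0). At an unadjusted p under 0.05 there were 0 members, against 2.49% of all genes, and there was 1 without GFI1-KD replicate 2 (Lamp2), 1 without GFI1-KD replicate 3 (Gusb, lower) and 1 with Gfi1-WT as the control (Tfe3, higher). Lamp2 had the lowest p, with 446.5, 172.9 and 383.7 CPM in GFI1-KD and 218.2, 163.8 and 217.5 CPM in GFI1-KI. Of the GFI1-KD libraries, 2 were above all GFI1-KI libraries and 1 lay among them, and the log2 fold change was 0.74 ± 0.42 (SE, adjusted p = 1), or 1.05 without GFI1-KD replicate 2.

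Tfeb came second, with 1.72 CPM in 1 GFI1-KD library and 0 in the other 2, against 0 in all GFI1-KI libraries. Taking 3 counts in a library (0.162 CPM) as the floor, its mean was at least 3.55-fold higher in GFI1-KD, on the strength of that 1 library. Glb1 had 23.5, 57.9 and 56.0 CPM in GFI1-KD and 2.998, 21.3 and 29.99 CPM in GFI1-KI, which overlap, with a log2 fold change of 1.34 ± 0.88 (SE, adjusted p = 1).

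The GFI1-KD and GFI1-KI libraries did not overlap for 1 of the 37 members, against 9.09% of all genes. This was Atg7, the enzyme that activates Atg8 and Atg12 for conjugation. It had 0.062, 16.1 and 29.2 CPM in GFI1-KD and 39.99, 32.1 and 33.0 CPM in GFI1-KI. The GFI1-KI libraries were close together and the GFI1-KD libraries were not, and the log2 fold change was -1.21 ± 2.03 (SE, adjusted p = 1). Without GFI1-KD replicate 1, in which Atg7 was near 0, it was -0.63.

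In the libraries labelled Gfi1-KO, set against those labelled Gfi1-WT, 20 members were higher and 17 lower, and the median of their log2 fold changes was 0.09 (all genes tested: 48.1% higher, median -0.03). Without Gfi1-KO replicate 2 the median over the members was 0.02. At an unadjusted p under 0.05 there were 2 members, Ctsz and Tfe3, both higher, against 3.07% of all genes, and without Gfi1-KO replicate 2 there was 1, Sqstm1. Without Gfi1-KO replicate 1 there were 4, which were Ctsz, Tfe3 and Becn1, higher, and Atg16l1, lower. With GFI1-KI as the control in place of Gfi1-WT there was 1, Mitf, lower, and neither Ctsz nor Tfe3. Mitf had 83.5, 1.39 and 0 CPM in GFI1-KI.

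Ctsz encodes cathepsin Z, a lysosomal carboxypeptidase, and lies at chr2:174427493-174439039. It had 117.4, 147.6 and 107.6 CPM in Gfi1-KO and 78.1, 31.8 and 52.7 CPM in Gfi1-WT. All Gfi1-KO libraries were above all Gfi1-WT libraries, and also above those of GFI1-KI (61.6, 96.7 and 62.7 CPM). The log2 fold change was 1.20 ± 0.47 (SE, adjusted p = 1), and 1.09 without Gfi1-KO replicate 2. In the same libraries, the granulocyte markers summed to 194.2, 3439 and 95.7 CPM in Gfi1-KO, against 170.4, 226.2 and 158.7 CPM in Gfi1-WT. The megakaryocyte markers summed to 853.7, 37.8 and 2642 CPM in Gfi1-KO, against 345.4, 479.9 and 956.4 CPM in Gfi1-WT. The T and NK cell markers summed to 313.3, 937.5 and 708.8 CPM in Gfi1-KO, against 153.4, 279.8 and 328.5 CPM in Gfi1-WT. Nearly all of the T and NK sum was 1 gene, Nkg7 (295.7, 937.5 and 708.8 CPM in Gfi1-KO, 138.1, 233.6 and 328.3 CPM in Gfi1-WT). Cd3e, Cd3g and Il2rb of that list were at 0 in all 15 libraries, and Klrb1c had 16.8, 0 and 0 CPM in Gfi1-KO. The part of cells that carry any of these markers in the level of Ctsz was not tested.

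Tfe3 was above 0 in the 3 Gfi1-KO libraries and at 0 in the 3 Gfi1-WT libraries, although Gfi1-KO replicate 3 held only 1 count. Its mean of 7.66 CPM in Gfi1-KO was at least 42.6-fold higher than the floor of 0.18 CPM that 3 counts make in a Gfi1-WT library (adjusted p = 1). Most of that mean is the 19.96 CPM of Gfi1-KO replicate 2, and without it the mean was 1.51 CPM, at least 8.39-fold above the floor. In GFI1-KI, the other control genotype, the mean of Tfe3 was 17.8 CPM, above that of Gfi1-KO.

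Becn1 had the third lowest p, with 205.4, 352.9 and 286.7 CPM in Gfi1-KO and 163.6, 216.6 and 140.6 CPM in Gfi1-WT. Only Gfi1-KO replicate 1 lay within the range of Gfi1-WT, and the log2 fold change was 0.70 ± 0.33 (SE, adjusted p = 1), or 0.53 without Gfi1-KO replicate 2.

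The 2 genotypes did not overlap for 4 of the 37 members, against 8.95% of all genes: Ctsz and Tfe3 higher, Mitf and Sqstm1 lower in Gfi1-KO. Sqstm1 had 20.1, 31.6 and 1.51 CPM in Gfi1-KO and 42.1, 116.3 and 76.3 CPM in Gfi1-WT, with a log2 fold change of -2.14 ± 1.05 (SE, adjusted p = 1). It was the only 1 of these 4 whose difference was larger without Gfi1-KO replicate 2, at -2.85. Mitf had 0.415, 0 and 0 CPM in Gfi1-KO (7, 0 and 0 counts) and 2.45, 1.22 and 0.42 CPM in Gfi1-WT (43, 21 and 7 counts). Its log2 fold change was -3.24 ± 2.54 (SE, adjusted p = 1).

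**Figure D5:**
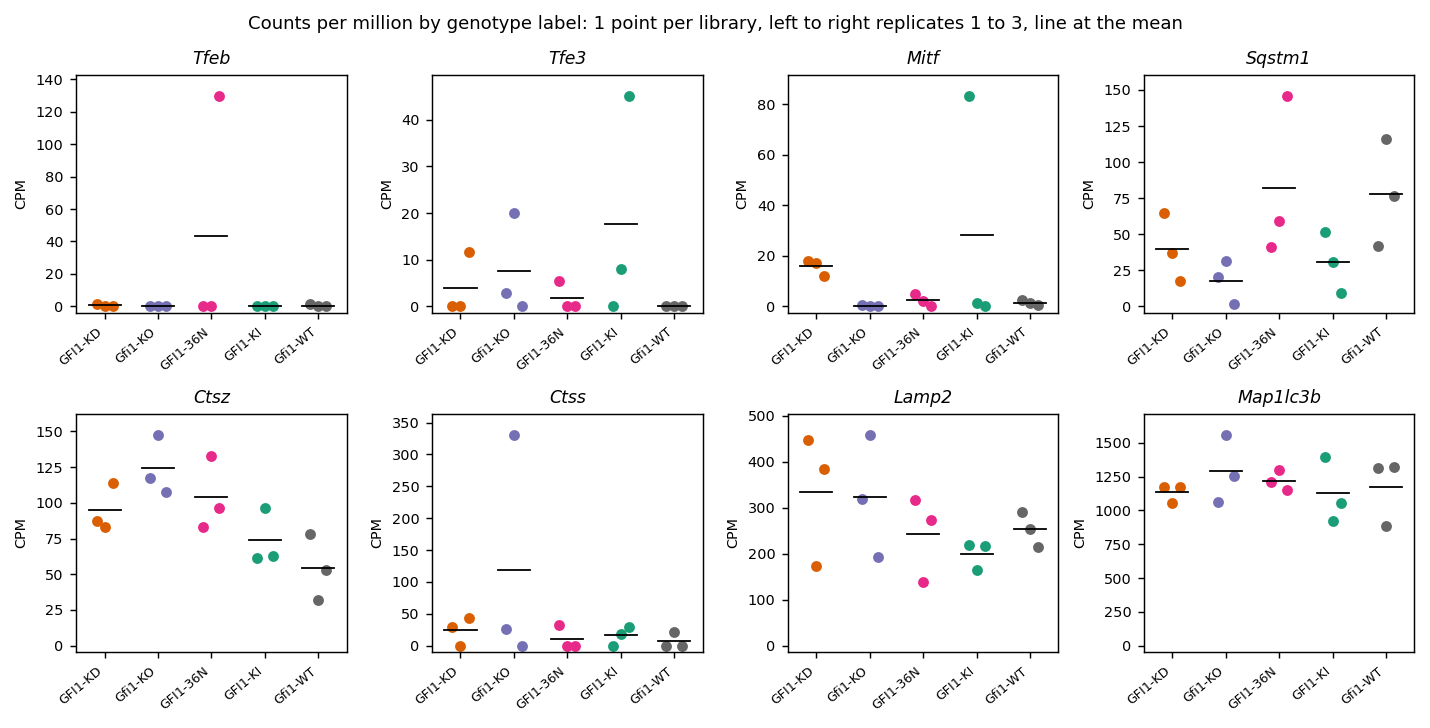
CPM of 8 members in each library (points, replicates 1 to 3 from left to right within a genotype label) with the mean of each genotype (line). Ctsz is higher in all 3 Gfi1-KO libraries (107.6 to 147.6 CPM) than in the Gfi1-WT libraries (31.8 to 78.1 CPM), while the mean of Tfeb in GFI1-36N and that of Ctss in Gfi1-KO rest on 1 library each.

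In the libraries labelled GFI1-36N, set against those labelled GFI1-KI, 23 members were higher and 14 lower, and the median of their log2 fold changes was 0.23 (all genes tested: 46.3% higher, median -0.08). At an unadjusted p under 0.05 there was 1 member, Tfeb, against 4.6% of all genes. Its mean of 43.3 CPM in GFI1-36N was at least 268-fold above the GFI1-KI floor of 0.162 CPM (adjusted p = 0.981), and without GFI1-36N replicate 3 both genotypes were at 0. Without that library 0 members were under an unadjusted p of 0.05, as was also the case without any 1 of the GFI1-KI libraries.

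Cd63 and Npc2 were the 2 members of 37 whose libraries did not overlap between GFI1-36N and GFI1-KI, both higher, against 9.57% of all genes. Cd63 had 533.6, 606.6 and 653.8 CPM in GFI1-36N and 483.4, 428 and 402.1 CPM in GFI1-KI, with a log2 fold change of 0.45 ± 0.30 (SE, adjusted p = 1). Npc2 had 296.1, 244.5 and 311.8 CPM in GFI1-36N and 166.5, 205.5 and 221.3 CPM in GFI1-KI, with a log2 fold change of 0.52 ± 0.35 (SE, adjusted p = 1). Both differences were near 1.5 standard errors, and without GFI1-36N replicate 3 they were 0.38 and 0.45.

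In the libraries labelled GFI1-KI, set against those labelled Gfi1-WT, 16 members were higher and 21 lower, and the median of their log2 fold changes was -0.06 (all genes tested: 49.99% higher, median 0). Tfe3 was the 1 member at an unadjusted p under 0.05, against 2.09% of all genes. Its mean of 17.8 CPM in GFI1-KI was at least 98.6-fold above the Gfi1-WT floor of 0.18 CPM (adjusted p = 1, and 0.0401 by DESeq2), but 1 of the GFI1-KI libraries was at 0, like all Gfi1-WT libraries. Without GFI1-KI replicate 3, which held 45.2 CPM, the mean was 4.04 CPM, at least 22.4-fold above the floor. Without Gfi1-WT replicate 1 or without Gfi1-WT replicate 2, 0 members were under an unadjusted p of 0.05. Mitf had a log2 fold change of 4.37 ± 2.67 (SE, adjusted p = 1) that rested on the 83.5 CPM of GFI1-KI replicate 1, and without that library it was -0.98.

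The 2 control genotypes did not overlap for 3 of the 37 members, against 8.65% of all genes. Glb1 was lower, with 2.998, 21.3 and 29.99 CPM in GFI1-KI and 50.6, 54.4 and 91.4 CPM in Gfi1-WT and a log2 fold change of -1.86 ± 0.90 (SE, adjusted p = 1). Lamp1 was higher, with 31.2, 38.1 and 42.9 CPM in GFI1-KI and 16.6, 28.8 and 29.6 CPM in Gfi1-WT and a log2 fold change of 0.58 ± 0.85 (SE, adjusted p = 1). Ulk1 was higher as well, with 11.03, 10.9 and 52.7 CPM in GFI1-KI and 0.683, 3.48 and 0 CPM in Gfi1-WT and a log2 fold change of 4.16 ± 2.88 (SE, adjusted p = 1). These are both control genotypes, so the values show how far members differed between controls.

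Whether any of the 5 genotypes differed was tested in 1 step per gene. At an unadjusted p under 0.05 there were 356 genes (2.67%) and 0 members, and after adjustment 0 genes (0%) by edgeR's quasi-likelihood F test and 45 by DESeq2. The effect of lowered GFI1 (GFI1-KD minus GFI1-KI) was also set against that of lost Gfi1 (Gfi1-KO minus Gfi1-WT). Of all genes 401 (3%) were at an unadjusted p under 0.05, as was 1 member, Tfe3. After adjustment 0 genes (0%) passed by edgeR's quasi-likelihood F test and 198 by DESeq2, none of them a member. The 2 effects on Tfe3 differed in sign, with a fitted difference of -12.28 on the log2 scale (adjusted p = 0.9998) that depends on Gfi1-WT being at 0.

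Another 124 genes of the pathway in 8 lists were read alongside the members, of which 122 were tested, and 0 passed the adjusted threshold in any of the 4 comparisons by edgeR's quasi-likelihood F test. At an unadjusted p under 0.05 there was 1 of these 122 genes in GFI1-KD minus GFI1-KI, 0 in Gfi1-KO minus Gfi1-WT, 4 in GFI1-36N minus GFI1-KI and 2 in GFI1-KI minus Gfi1-WT, shares no higher than those of all genes given above. Higher and lower genes numbered 75 and 46 in GFI1-KD minus GFI1-KI, 58 and 63 in Gfi1-KO minus Gfi1-WT, 55 and 67 in GFI1-36N minus GFI1-KI, and 52 and 70 in GFI1-KI minus Gfi1-WT. Libraries did not overlap for 18 (14.8%), 9 (7.38%), 16 (13.1%) and 8 (6.56%) of the 122 genes in the same order, against 9.09%, 8.95%, 9.57% and 8.65% of all genes.

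The 17 subunits of the vacuolar ATPase, the pump that acidifies the lysosome, summed to 2064 to 3355 CPM in a library. Atp6v1d had 177.6, 287.7 and 464.9 CPM in GFI1-36N and 157.4, 163 and 119.1 CPM in GFI1-KI, which do not overlap, with the highest value in GFI1-36N replicate 3 and a log2 fold change of 1.08 ± 0.36 (SE, adjusted p = 0.981), or 0.67 without that library. Atp6v0a1 was at 0 in all GFI1-36N libraries and in 2 of the 3 GFI1-KI libraries, with 7.499 CPM in the third. In the lists of mTORC1 regulators, Lamtor5 and Lamtor4 had the lowest p. Lamtor4, a subunit of the Ragulator complex that anchors mTORC1 to the lysosome, had 92.9, 118.5 and 63.6 CPM in GFI1-KD and 38.9, 48.0 and 61.2 CPM in GFI1-KI (log2 fold change 0.89 ± 0.52, SE, adjusted p = 1).

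Another list held the receptors that bring newly made enzymes to the lysosome. Igf2r, the cation-independent mannose 6-phosphate receptor, had 0.431, 0 and 0.103 CPM in GFI1-KD and 325.6, 7.55 and 16.1 CPM in GFI1-KI, with a log2 fold change of -9.32 ± 2.80 (SE, adjusted p = 1). It was also below GFI1-KI in GFI1-36N (1.18, 0.153 and 0 CPM), and the GFI1-KI level rested mainly on replicate 1 with 325.6 CPM, without which the log2 fold change of GFI1-KD minus GFI1-KI was -6.00. The levels in Gfi1-KO (0.711, 0.0612 and 0.223 CPM) and Gfi1-WT (17.4, 12.8 and 0.06 CPM) overlapped. M6pr, the cation-dependent receptor of the same kind, had 313.4, 430.1 and 325.2 CPM in GFI1-KI and 409.6, 640.8 and 539.6 CPM in Gfi1-WT (log2 fold change -0.57 ± 0.26, SE, adjusted p = 1).

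Of the other hydrolases, Naglu was at 0 in all GFI1-KI libraries and at 7.97, 1.16 and 0 CPM in Gfi1-WT. Of the other membrane proteins, Laptm5, a lysosomal protein of blood cells, had 65.95, 208.2 and 186 CPM in GFI1-KI and 291.1, 453.8 and 404.8 CPM in Gfi1-WT (log2 fold change -1.32 ± 0.54, SE, adjusted p = 1). Laptm4a had 685.4, 388.9 and 454.5 CPM in GFI1-KD and 309.2, 372.2 and 349.4 CPM in GFI1-KI, and neither pair overlaps.

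In the remaining lists, the autophagy receptor Tax1bp1 had 678.3, 673.4 and 385.9 CPM in GFI1-36N and 853.9, 766.1 and 986.2 CPM in GFI1-KI (log2 fold change -0.58 ± 0.24, SE, adjusted p = 0.981), or -0.36 without GFI1-36N replicate 3. Tollip had 16.5, 57.97 and 0.0625 CPM in GFI1-36N, against 130.5, 70.2 and 153.6 CPM in GFI1-KI. The log2 fold change of Tollip was -2.25 ± 1.32 (SE, adjusted p = 0.996 by the quasi-likelihood F test), or -1.67 without GFI1-36N replicate 3. Vps16 is a subunit of the tethering complexes that prepare fusion with the lysosome. It had 43.9, 26.2 and 22.95 CPM in GFI1-36N and 59.3, 101.7 and 102.7 CPM in GFI1-KI. The log2 fold change of Vps16 was -1.5 ± 0.73 (SE, adjusted p = 0.981 by the quasi-likelihood F test), or -1.33 without GFI1-36N replicate 3. These 3 genes did not overlap between GFI1-36N and GFI1-KI. Vps18 and Atg2b overlapped between GFI1-36N and GFI1-KI (adjusted p = 0.986 and 0.983). Ambra1, a regulator of the Becn1 complex, had 2.03, 3.90 and 6.59 CPM in GFI1-KD and 0.910, 0.334 and 0 CPM in GFI1-KI, which do not overlap (log2 fold change 3.31 ± 2.15, SE, adjusted p = 1).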

How the data were processed

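Bulk RNA-seq values of 15 libraries (5 genotypes, 3 each) were used. Estimated counts deposited by the authors were used for 35533 gene symbols. The authors ran Salmon on mouse cDNA of GRCm38 and derived them from length-scaled TPM. They were rounded to whole counts. The row without a symbol held 0.00679% to 0.0719% of a library and was left out. R 4.3.3 and edgeR 4.0.16 were used: TMM, filterByExpr (minimum count 10, minimum total 15), quasi-likelihood F test, all libraries in 1 fit with 10 residual degrees of freedom and Benjamini-Hochberg adjustment over 13358 genes. The biological coefficient of variation was 1.39. Levels per length came from the transcript table, with GENCODE M21 lengths (115895 of 117135 transcripts matched). Salmon inferred the library type, and the type inferred is not given in the sources used here.

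Members and lists were chosen with earlier results of these data known. Described were members at an unadjusted p under 0.05 or the 3 with the lowest p, members whose genotypes did not overlap, Tfeb, Tfe3, Mitf, Lamp1, Ctsd, Map1lc3b and Sqstm1, and the 2 genes of lowest p of each other list, of which 1 is not reported here. Scripts were tested on simulated data. Alternatives were replicate number as a block, leaving out libraries, no filter, upper-quartile and median-ratio scaling, DESeq2 1.42.0, limma-trend (limma 3.58.1) on log2(CPM + 1), only the genotypes compared, and the other control genotype. Among 105 comparisons of 1 library with another, 0 found the same values.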

Additional observations from a re-analysis of the deposited data

How the results depend on the processing

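The count of genes past the adjusted threshold was 0 in the reported fits. It stayed at 0 under the replicate block, both other scalings, no filter and limma-trend. It also stayed at 0 with both GFI1-36N replicate 3 and GFI1-KD replicate 1 removed, the libraries with the lowest median correlations (0.71 and 0.804). Gfi1-KO replicate 2 was kept in that fit, and its removal together with GFI1-36N replicate 3 was not tried. DESeq2 called 185 genes in GFI1-KD minus GFI1-KI, 197 in Gfi1-KO minus Gfi1-WT, 362 in GFI1-36N minus GFI1-KI, 149 in GFI1-KI minus Gfi1-WT, 45 among the 5 genotypes and 198 in the difference of the GFI1-KD and Gfi1-KO effects. Fitting only the genotypes compared called 1 gene in GFI1-36N minus GFI1-KI. Leaving out single libraries gave 0 to 1 genes in Gfi1-KO minus Gfi1-WT and in the difference of effects, the 1 without Gfi1-KO replicate 1. The causes were not tested.

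The median log2 fold change of the members moved by less than the spread between libraries of a genotype (SD 0.337) under every alternative. Leaving out single libraries gave -0.15 to 0.18 in GFI1-KD minus GFI1-KI, 0 to 0.25 in Gfi1-KO minus Gfi1-WT, 0.06 to 0.34 in GFI1-36N minus GFI1-KI and -0.23 to 0.09 in GFI1-KI minus Gfi1-WT. Without single libraries, Mitf in GFI1-KI minus Gfi1-WT ranged from -0.98 (without GFI1-KI replicate 1) to 5.11. Tfeb ranged from 0 (without GFI1-KD replicate 1) to 6.98 in GFI1-KD minus GFI1-KI and from 0 (without GFI1-36N replicate 3) to 13.21 in GFI1-36N minus GFI1-KI, and at 0 both genotypes have no counts. Members at an unadjusted p under 0.05 then numbered 0 to 1, 1 to 4, 0 to 1 and 0 to 3 in the order above, and 0 to 2 in the difference of effects. Replicate numbers were not treated as pairs in the reported fits, and 1 of 30 same-numbered pairs of libraries correlated over 0.1. With a biological coefficient of variation of 1.39, low correlations cannot exclude that same-numbered samples were prepared together. The labels do not say whether they were. With the replicate block the medians were 0.02, 0.11, 0.14 and -0.10 in the order above, and the genes at an unadjusted p under 0.05 numbered 253, 279, 463 and 197. By DESeq2 they numbered 705, 908, 1227 and 606, against 333, 410, 614 and 279 as reported. The counts also moved by over 1.5 times in GFI1-KD minus GFI1-KI without GFI1-KD replicate 1 (209) and with no filter (532), in Gfi1-KO minus Gfi1-WT without Gfi1-KO replicate 1 (800), without both libraries named first (632) and with only the genotypes compared (234), in GFI1-36N minus GFI1-KI without GFI1-36N replicate 1 (928) and with only the genotypes compared (249), and in GFI1-KI minus Gfi1-WT without both libraries (460) and with no filter (454).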
